A study of Homo sapiens with 6 samples.

Results

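The map described here sets 2 histone marks against each other in untreated H1299, a long-established human cell line from a non-small cell lung cancer. Its members are the intervals of the peak lists of the untreated H3K4me3 and H3K27me3 libraries, with lines that share an interval joined. The H3K4me3 list gave 50585 intervals and the H3K27me3 list 85579, together 136164 of the 275570 intervals in the 4 peak lists of the series. The 3 H3K4me3 and 8 H3K27me3 intervals outside chromosomes 1 to 22 and X were left out, so 50582 and 85571 intervals were mapped. The assay was ChIP-seq, in which DNA bound by an antibody to each mark is sequenced, here from formaldehyde-fixed chromatin cut with micrococcal nuclease. The series holds 6 libraries of H1299 cells, which are an H3K4me3, an H3K27me3 and an input library without treatment and the same 3 with 5 mM metformin. The length of treatment is not given in the sources used here, and the 2 inputs were left out. With 1 library for each mark and condition, values have no replicate error and no p-value is given.

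Trimethylation of histone H3 at lysine 4 (H3K4me3) is laid down at gene starts by SET1 and MLL methyltransferase complexes and is typical of promoters that are active or poised. Trimethylation of lysine 27 (H3K27me3) is laid down by Polycomb repressive complex 2 and spreads over silent developmental genes and other repressed stretches, often as broad domains. The marks are usually found apart, and promoters that carry both are called bivalent. Such promoters are best known from embryonic stem cells and are also seen in cancer lines.

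The H3K4me3 intervals covered 49.4 Mb and the H3K27me3 intervals 85.5 Mb of a mapped stretch of 2940 Mb, counted from the first to the last interval of either mark on each chromosome. H3K27me3 thus covered 2.91% of all bases and H3K4me3 1.68%. The median width was 517 bp for H3K4me3 (25th to 75th percentile 276 to 1295 bp) and 643 bp for H3K27me3 (352 to 1157 bp), and the widest intervals were 14.3 kb and 34.8 kb. Intervals of each mark lay close to others of their own mark, with a median gap to the nearest one of 0.332 kb for H3K4me3 and 1.43 kb for H3K27me3. The smallest such gaps were 165 bp and 642 bp. Read depth is unknown because the lists hold no read counts. Neighbouring intervals of 1 promoter or domain are not independent, so the 95% intervals below cover counting error only and are too narrow for that reason.

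Distances to the other mark were far longer. The median gap from an H3K4me3 interval to the nearest H3K27me3 interval was 81.7 kb (95% interval 80.4 to 83.1), and from an H3K27me3 interval to the nearest H3K4me3 interval it was 65.9 kb (65.3 to 66.6). The middle 50% of H3K4me3 intervals lay between 22.3 and 216 kb from H3K27me3, and the middle 50% of H3K27me3 intervals between 26.2 and 139 kb from H3K4me3. The tails differed between the marks. The most distant H3K4me3 interval had no H3K27me3 for 14.6 Mb, while no H3K27me3 interval was farther than 2.57 Mb from H3K4me3. Within 1 Mb, 96.0% of H3K4me3 intervals met the other mark, against 99.9% of H3K27me3 intervals. A base of the mapped stretch, taken over all bases, lay at a median of 143 kb from H3K27me3 and 83.6 kb from H3K4me3. By median, intervals of either mark were thus nearer to the other mark than bases of this whole stretch, which includes long segments without either mark. Against only the 1 Mb bins with an interval of either mark, this did not hold at each distance for either mark. Within 10 kb of H3K27me3 lay 15.9% of H3K4me3 intervals and 22.1% of bases there. The shares were 38.9% and 39.1% within 50 kb and 55.3% and 50.2% within 100 kb. In the same bins 41.3% of H3K27me3 intervals and 44.4% of bases lay within 50 kb of H3K4me3, and 64.1% and 61.2% within 100 kb.

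Direct contact was uncommon. Of the 50582 H3K4me3 intervals, 1408 (2.78%, exact 95% interval 2.64 to 2.93) were overlapped by H3K27me3 by at least 1 bp, and 1166 of the 85571 H3K27me3 intervals (1.36%, 1.29 to 1.44) were overlapped by H3K4me3. Of all bases, 2.91% lay under H3K27me3 and 1.68% under H3K4me3, so both shares of intervals were near those of bases. The overlapped shares of intervals depend on the processing more than their counting error shows. The first was 4.33% with intervals within 1 kb merged, and the second was 0.741% with H3K4me3 values of 5 or more and 3.69% with H3K27me3 merged within 5 kb, an alternative chosen after seeing the data. Within 10 kb of the other mark lay 8056 H3K4me3 intervals (15.9%) and 9276 H3K27me3 intervals (10.8%). Of all bases, 19.5% lay within 10 kb of H3K27me3 and 13.8% within 10 kb of H3K4me3. By length, H3K27me3 covered 1.04% of the bases under H3K4me3, which is 0.357 times its share of all bases, and H3K4me3 covered 0.601% of the bases under H3K27me3.

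Whether the marks were close or apart depended on the scale. H3K27me3 covered 1.69% of bases less than 250 bp outside an H3K4me3 interval, 2.04% of those from 500 bp to 1 kb away and 2.49% of those 2 to 3 kb away. Its share rose to 2.88% at 7.5 to 10 kb, about the share over all bases. It went on to 3.92% at 20 to 50 kb and was largest, among the distance classes used, at 50 to 100 kb with 4.62%, or 1.59 times the share over all bases. Beyond that it fell to 2.18% at 200 to 500 kb and 0.177% at 500 kb and more. Against all bases, a low zone thus lay within 10 kb of H3K4me3 and a raised zone from 10 to 200 kb. The borders of these zones depend on the level chosen: against only the 1 Mb bins used for the classes of bins, the class of 10 to 20 kb was still at 0.970 times their level and the raised zone began at 20 kb.

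**Figure D1:**
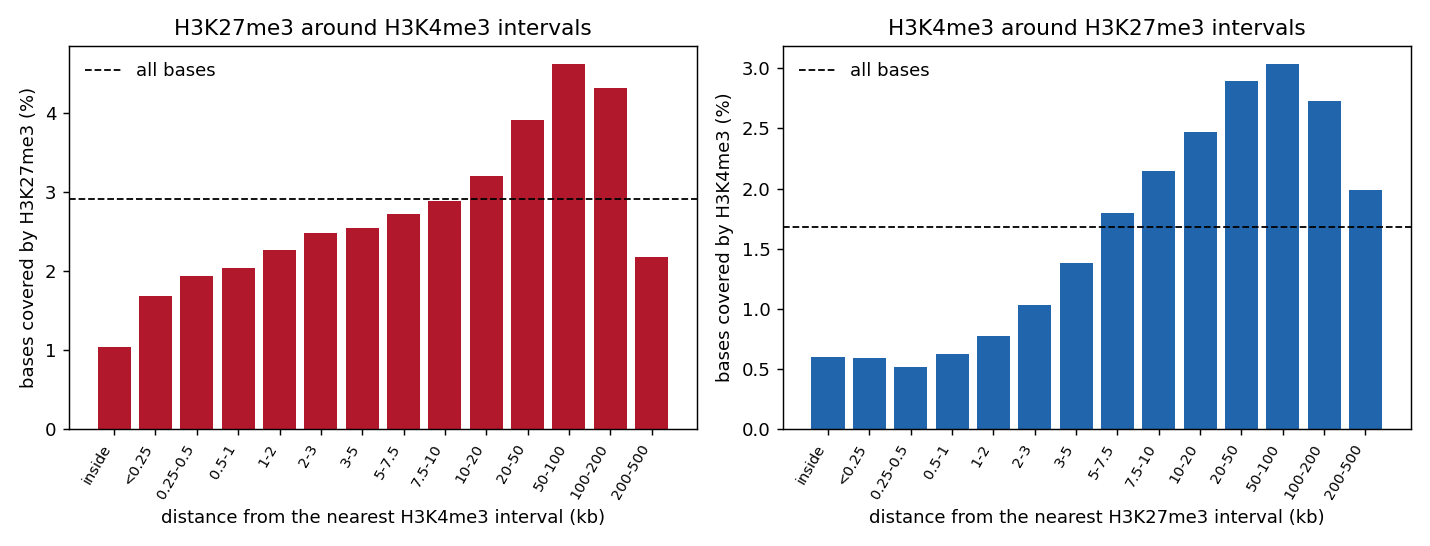
Share of bases covered by the other mark (percent, vertical axis) in classes of distance from the nearest H3K4me3 interval (left) or H3K27me3 interval (right), with the share over all bases as a dashed line. On the left H3K27me3 rises from 1.04% inside H3K4me3 to 4.62% at 50 to 100 kb, and on the right H3K4me3 rises from 0.601% inside H3K27me3 to 3.03% at 50 to 100 kb.

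Seen from H3K27me3, the low zone was flatter and deeper at short range. H3K4me3 covered 0.601% of bases inside H3K27me3 intervals, 0.589% of those less than 250 bp outside them and 0.626% at 500 bp to 1 kb. Its share thus hardly changed across the border of a called H3K27me3 interval, which need not be the border of a domain. Of the H3K27me3 intervals, 87.4% had H3K27me3 on both sides, and H3K27me3 neighbours lay a median of 2.30 kb apart. The H3K4me3 share passed that over all bases between 5 and 7.5 kb (1.80% against 1.68%). It was largest at 50 to 100 kb with 3.03%, or 1.81 times the share over all bases. At 500 kb and more it was 0.530%. From the H3K4me3 side the step at the border was larger, from 1.04% inside to 1.69% just outside.

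The stretch used for these shares includes long segments with no interval of either mark, such as those around centromeres. The shares were therefore also set against bases of the 2586 bins of 1 Mb that held at least 1 interval of either mark, below called used bins. In those bins H3K27me3 lay within 1 kb of 4.99% of H3K4me3 intervals and 8.71% of bases, and within 10 kb of 15.9% of intervals and 22.1% of bases. At 50 kb the shares were nearly equal, 38.9% and 39.1%, and at 100 kb the order had turned, 55.3% of intervals against 50.2% of bases. For H3K27me3 intervals the shares within 10 kb of H3K4me3 were 10.8% against 15.7% of bases, within 50 kb 41.3% against 44.4%, and within 100 kb 64.1% against 61.2%. An interval has a width and so meets a limit more easily than a single base, which works against the lower shares at short range.

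**Figure D2:**
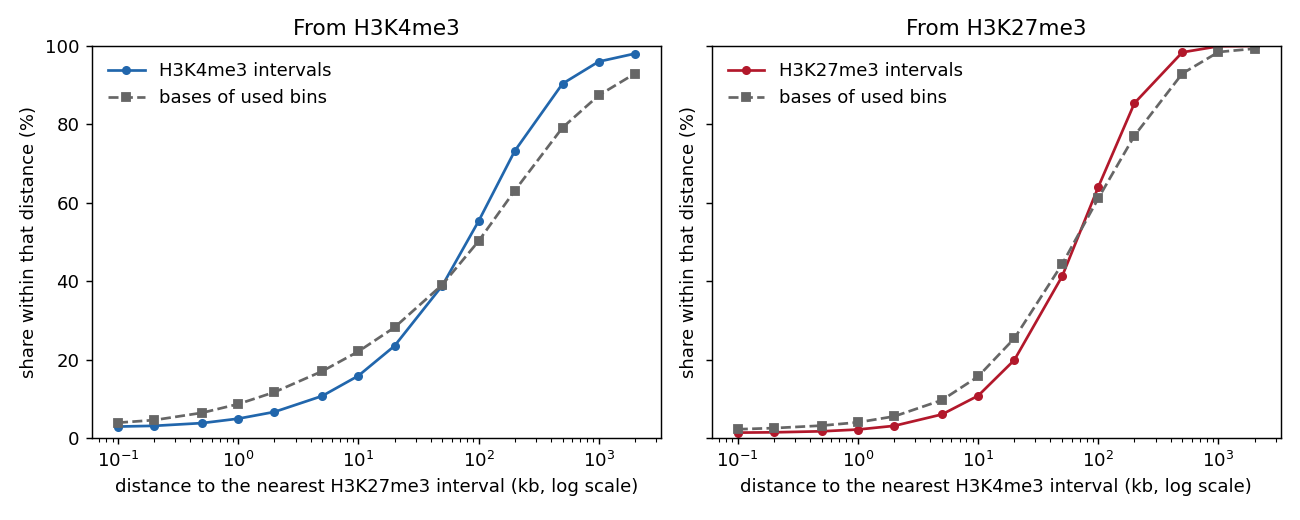
Share of H3K4me3 intervals (left) and H3K27me3 intervals (right) within a given distance of the other mark (kb, log axis), beside the share of all bases of the used bins (dashed). The interval curves run below the base curves up to 20 kb on both sides and above them from 100 kb upwards.

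The geometry of contact was mostly that of edges. The lists formed 1434 overlapping pairs of intervals with 514 kb in common, and in 759 of them (52.9%) the intervals overlapped at an edge, by a median of 252 bp. In 466 pairs (32.5%) an H3K4me3 interval lay inside an H3K27me3 interval. Those H3K4me3 intervals were narrow, with a median of 286 bp, inside H3K27me3 intervals with a median of 2161 bp. The opposite nesting, H3K27me3 inside H3K4me3, occurred in 209 pairs (14.6%), with median widths of 341 and 1210 bp.

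The 5 longest overlaps involved H3K4me3 intervals of 2 kb or more. On chr11:109293001-109295721, 2364 bp of 2721 bp (86.9%) lay under 1 H3K27me3 interval, and on chr12:4379919-4385361, 2346 bp of 5443 bp (43.1%) lay under 4 of them. The interval chr12:113903387-113905701 lay under H3K27me3 along its whole 2315 bp. The next were chr14:88789992-88792004, with 1935 of 2013 bp (96.1%), and chr12:14132595-14134888, with 1864 of 2294 bp (81.3%). Their deposited values, read as −log10 q, were 11.96, 17.8, 9.79, 12.5 and 21.7, against a median of 5.73 over the H3K4me3 list. They were thus neither weak calls nor among the highest, which reached 151.

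Contact was unevenly spread over H3K4me3 intervals. By width, H3K27me3 overlapped 3.01% of H3K4me3 intervals under 500 bp and 3.56% of those from 500 bp to 1 kb, read against 2.78% for the whole list. From there the share was lower in each wider class, 2.53% at 1 to 2 kb, 1.35% (83 of 6167) at 2 to 4 kb and 0.971% (12 of 1236, 0.503 to 1.69) at 4 kb or more. A wider interval is touched more easily, so the order runs against the effect of width. The share of length under H3K27me3 fell in the same order, from 2.37% under 500 bp to 0.117% at 4 kb or more. The flanks followed the interiors. H3K27me3 began within 1 kb outside 2.66% of H3K4me3 intervals under 500 bp and outside 0.324% (4 of 1236) of those of 4 kb or more, and within 10 kb of 16.7% and 6.23%. The median gap, in contrast, was of similar size in the narrowest and widest classes, 83.1 and 93.4 kb.

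By deposited value the pattern was the same at the upper end. The overlapped share was 2.98% at values under 2, 3.48% from 2 to 5 and 3.99% from 5 to 10, the highest of the classes. It was 2.47% from 10 to 20, 0.915% from 20 to 50 and 0.301% (5 of 1659) at 50 or more. Wide H3K4me3 intervals have high values, with a median width of 3173 bp at 50 or more, so width and value cannot be told apart here. H3K27me3 lay within 10 kb of 10.4% of intervals at 50 or more and of 15.9% under 2, while the median gaps were 77.7 and 89.2 kb. High-valued H3K4me3 intervals thus had less H3K27me3 in the nearest 10 kb but no longer median distance to it.

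H3K27me3 intervals showed the opposite order by width. H3K4me3 overlapped 0.875% of those under 500 bp, 1.70% at 1 to 2 kb, 3.88% at 4 to 10 kb and 5.71% (12 of 210, 2.99 to 9.77) at 10 kb or more, against 1.36% of the whole list. Here width alone makes contact easier, and the share of length under H3K4me3 showed no such rise, with 0.672% under 500 bp, 0.608% at 1 to 2 kb, 0.510% at 4 to 10 kb and 0.338% at 10 kb or more. Wide H3K27me3 intervals also lay somewhat nearer to H3K4me3, at a median of 47.2 kb (37.8 to 61.3) for 10 kb or more against 69.7 kb (68.4 to 71.1) under 500 bp.

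Along the chromosomes the marks came in long runs. When all intervals were ordered by midpoint, 12308 of 136130 neighbouring pairs (9.04%, 8.89 to 9.19) joined an H3K4me3 to an H3K27me3 interval, 44418 (32.6%) joined 2 H3K4me3 intervals and 79404 (58.3%) joined 2 H3K27me3 intervals. The numbers of intervals on each chromosome would give 45.4% of mixed pairs if order played no part (2pq, where p and q are the shares of the marks), so the observed share was 0.199 times that level. It was below that level on each of the 23 chromosomes, at 0.165 times on chromosome 19 up to 0.294 times on X. The ratio depends on how the lists split a site into intervals. With intervals of each mark merged within 5 kb, an alternative chosen after seeing the data, 24.0% of pairs were mixed, against 47.0% from composition.

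Mixed neighbours stood farther apart than neighbours of a kind. The median gap was 13.5 kb between mixed neighbours, 0.603 kb between H3K4me3 neighbours and 2.30 kb between H3K27me3 neighbours. Among pairs 1 to 2 kb apart, 2.90% were mixed (676 of 23297), and among pairs 2 to 5 kb apart 5.26% were. The mixed share then rose through 15.8% at 10 to 20 kb to 28.3% at 50 to 100 kb and 29.3% at 100 kb or more. Under 1 kb it was 4.91%, a class that includes the overlapping pairs.

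**Figure D3:**
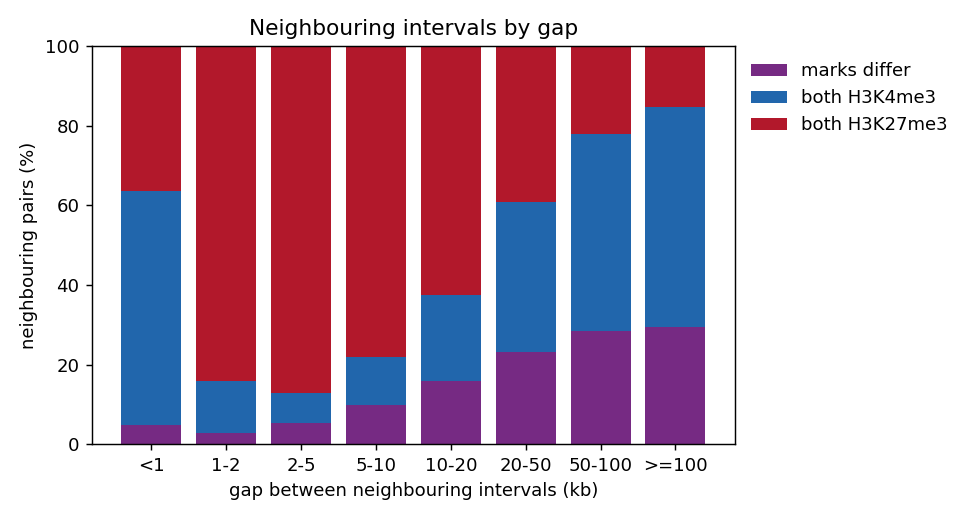
Make-up of neighbouring pairs of intervals (percent, vertical axis) by the gap between them (kb, horizontal axis), with pairs of different marks in purple, H3K4me3 pairs in blue and H3K27me3 pairs in red. Mixed pairs are 2.90% at 1 to 2 kb and 29.3% at 100 kb or more.

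The order of marks broke into 6164 runs of H3K4me3 and 6167 runs of H3K27me3. H3K4me3 runs held a mean of 8.21 and a median of 3 intervals, and H3K27me3 runs a mean of 13.9 and a median of 5. Runs of 10 or more intervals held 71.3% of all H3K4me3 and 85.2% of all H3K27me3 intervals. Runs of a single interval made up 23.4% and 24.7% of runs, but only 2.86% and 1.78% of intervals. A typical H3K4me3 run was short, with a median span of 4.79 kb, while the median H3K27me3 run spanned 34.4 kb. The long ones reached further for H3K4me3, with 246 runs of 1 Mb or more against 141 for H3K27me3.

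The H3K4me3 run with the most intervals was chr19:11404308-13510538, where 213 intervals followed each other over 2.11 Mb with no H3K27me3 between them and covered 10.1% of it. The third, chr19:36476500-38721071, held 194 intervals over 2.24 Mb and covered 10.7%. Both are gene-dense stretches of chromosome 19 known for zinc finger genes. The second was of another kind: chr4:111332156-140479310 held 198 H3K4me3 intervals over 29.1 Mb and covered 0.644% of it, so it was long because H3K27me3 was missing and not because H3K4me3 was dense. It was also the longest by span, ahead of chr9:45354124-66699193 (20 intervals over 21.3 Mb) and chr13:77553918-93902491 (62 intervals over 16.3 Mb).

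For H3K27me3 the longest runs by number were compact. The run chr6:39902976-41006427 held 307 intervals over 1.10 Mb and covered 41.5% of it. Then came chr7:131242435-132261262, with 290 intervals over 1.02 Mb and 44.4% covered, and chr2:217560766-219067667, with 270 intervals over 1.51 Mb and 18.0% covered. Those longest by span were nearly empty. On chr1:121485116-142608114, 4 intervals spanned 21.1 Mb with 0.00474% covered, a stretch that takes in the centromere. On chr11:48210625-57054379, 40 intervals covered 0.286% of 8.84 Mb, and on chr21:19244001-26813765, 4 intervals covered 0.0195% of 7.57 Mb. Spans of that kind measure the absence of both marks.

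Strict alternation was rare. Of 2226 stretches made up only of single-interval runs, 47 held 4 or more intervals and 7 held 6 or more. The longest, chr8:121757445-121827635, had 8 intervals, 4 of each mark, over 70.2 kb. It contained 2 wide H3K4me3 intervals of 2285 and 2149 bp with values of 21.5 and 15.2, and its 4 H3K27me3 intervals were 159 to 559 bp wide. The next, chr19:9974678-10046268 and chr1:182557612-182584409, had 7 intervals each over 71.6 and 26.8 kb. On chromosome 1 the marks followed each other at gaps of 2.35, 11.6 and 0.205 kb. There the fifth interval, H3K4me3 of 400 bp, lay inside an H3K27me3 interval of 1291 bp. Each of the 11 H3K27me3 intervals in these 3 stretches had a value of at most 2.004, and all but 1 of them were under 1 kb wide. Most of the H3K27me3 list was like this. Of its 85571 mapped intervals, 41364 had values under 1.5 and 35567 from 1.5 to 2. By width, 32449 were under 500 bp and 27440 from 500 bp to 1 kb.

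The neighbours of an interval went with its width. Of the H3K4me3 intervals, 39699 (78.5%) had H3K4me3 on both sides, 9422 (18.6%) had 1 neighbour of each mark and 1441 (2.85%) had H3K27me3 on both sides. The last group was narrower, with a median width of 390 bp against 535 bp for intervals among their own mark, and 8.81% against 15.3% of them were 2 kb or wider. Their median distance to H3K27me3 was 1.14 kb, and 433 of the 1441 (30.05%) were overlapped by it. An overlapping interval is usually also a neighbour, so choosing the group by its neighbours raises this share and shortens the distance, and both are given as a description. H3K27me3 intervals with H3K4me3 on both sides numbered 1515 (1.77%). Their median width was 493 bp, against 655 bp for the 74760 (87.4%) with H3K27me3 on both sides, and 30.9% of them were overlapped by H3K4me3, likewise a description.

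At the scale of 1 Mb the marks overlapped in territory. A used bin was called rich in a mark when the mark's covered length was at or above the upper quartile, 25.4 kb for H3K4me3 and 43.0 kb for H3K27me3, which makes 647 bins (25%) rich in each. Both marks were rich in 249 bins (9.63%), H3K4me3 alone in 398, H3K27me3 alone in 398 and neither in 1541. If the quartiles were independent, 6.25% of bins would be rich in both. Of the bins rich in 1 mark, 38.5% were also rich in the other. Over the 2586 bins, covered lengths of the marks went together moderately (Spearman rho 0.38, Pearson r 0.16), as a description of bins that share libraries, gene density and mappable sequence. In bins of 0.5 Mb the rho was 0.13, and 7.34% of bins were rich in both.

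**Figure D4:**
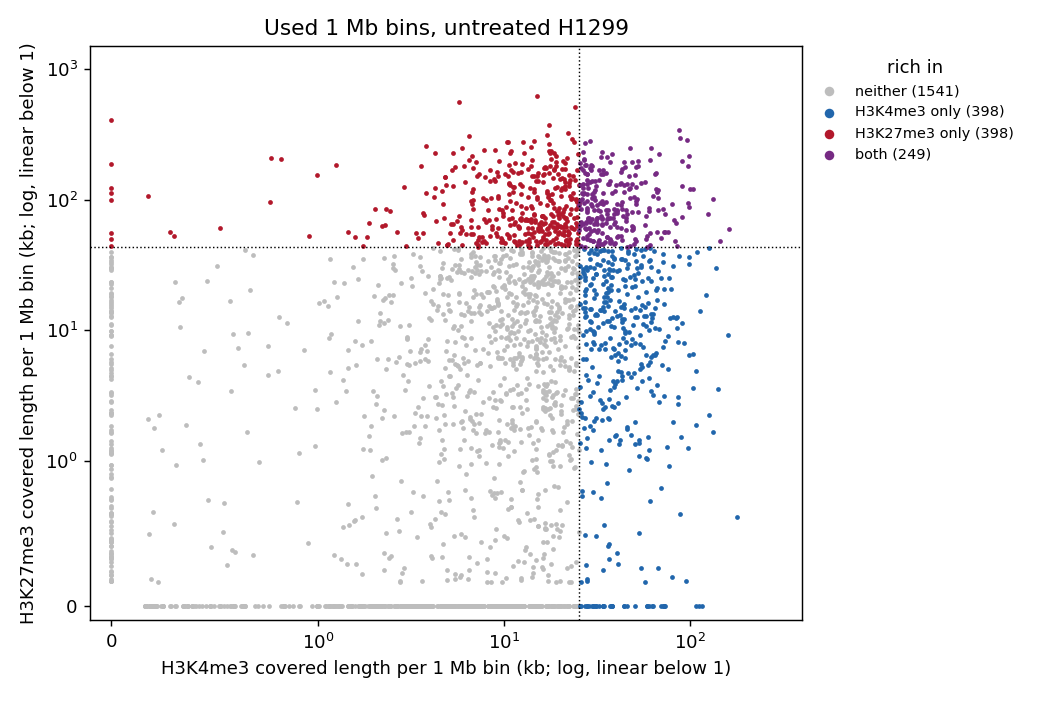
Covered length of H3K4me3 (horizontal) and H3K27me3 (vertical) in each of 2586 used bins of 1 Mb (kb, log axes that are linear below 1), coloured by the marks a bin is rich in, with dotted lines at the limits of 25.4 and 43.0 kb. The 249 bins rich in both lie at the upper right, and many bins of low H3K4me3 also have little H3K27me3.

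The relation was not a straight line. Bins were put into 10 classes of about equal number by H3K4me3 length, with class 1 the lowest in H3K4me3. The median H3K27me3 length was 0.731 kb in class 1 and 0.349 kb in class 2. Class 1 takes in the 124 used bins without H3K4me3, which had to hold H3K27me3 to be used. The order of classes 1 and 2 thus follows in part from the rule. From class 2 the median rose to 26.96 kb in class 9, and it was 20.2 kb in class 10. The share of bins rich in H3K27me3 was 5.79% in class 1, 40.2% in class 8 and 32.4% in class 10. The bins rich in neither mark, which are 59.6% of the used bins, held 27.6% of H3K4me3 and 13.8% of H3K27me3 length. H3K27me3 was the more concentrated mark: 80.3% of its length lay in the 647 bins rich in it, against 61.7% of H3K4me3 length in the bins rich in H3K4me3. In all, 503 used bins held no H3K27me3 and 124 no H3K4me3. Among the bins rich in 1 mark, 38 rich in H3K4me3 held no H3K27me3 at all and 8 rich in H3K27me3 held no H3K4me3.

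Sharing a bin did not bring the marks onto the same sequence. In the bins rich in both, H3K27me3 covered 10.4% of all bases but 1.97% of the H3K4me3 length, 0.190 times as much, the lowest ratio of the 4 classes. The ratios were 0.255 in bins rich in H3K4me3 only, 0.291 in those rich in H3K27me3 only and 0.642 in bins rich in neither. Within 10 kb of H3K27me3 lay 25.4% of H3K4me3 intervals and 45.3% of bases in the bins rich in both, and 11.9% of each in the bins rich in neither. Seen from H3K4me3, the low zone in the bins rich in neither did not reach beyond the intervals. H3K27me3 within 1 kb outside them stood at 1.06 times the level of those bins. Seen from H3K27me3 it did reach further. There H3K4me3 stood at 0.583 times the level of those bins within 1 kb outside and at 0.752 times at 2 to 5 kb. In the bins rich in both, H3K27me3 covered 3.89% of bases within 1 kb outside H3K4me3, 11.2% at 20 to 50 kb and 19.2% at 100 to 200 kb. The share thus passed the level of these bins at 20 to 50 kb, the same class as over all used bins set against their own level. Distances were nevertheless short in these bins, with a median of 36.8 kb from H3K4me3 to H3K27me3, against 119 kb in bins rich in H3K4me3 only and 23.8 kb in those rich in H3K27me3 only.

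H3K4me3 intervals were overlapped most often in bins rich in H3K27me3 only. There 443 of 5688 (7.79%) were overlapped, against 557 of 10607 (5.25%) in bins rich in both and 2.78% overall. In bins rich in H3K4me3 only it was 201 of 19509 (1.03%). The classes were set by covered length, so more contact where H3K27me3 is rich follows in part from the rule. H3K27me3 covered 10.7% of bases in the bins rich in it only. Set against the bases of each class, the ratio of length given above was highest in bins rich in neither (0.642). The median H3K4me3 width was 491 bp in bins rich in H3K27me3 only and 532 bp in those rich in both. Mixed neighbours made up 9.53% of pairs in bins rich in both, 6.003% in bins rich in H3K27me3 only and 11.8% in bins rich in neither, which is 0.214, 0.276 and 0.238 times the level of their composition.

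The densest H3K4me3 bins lay on chromosomes 6, 19 and 11. The bin at 27 to 28 Mb of chromosome 6 had 156 H3K4me3 intervals over 179 kb and 1 H3K27me3 interval of 0.609 kb, and the bin at 26 to 27 Mb had 160 kb of H3K4me3 and 9.10 kb of H3K27me3. These bins take in the replication-dependent histone gene clusters of 6p22, which are highly transcribed while cells replicate their DNA. Between 28 and 29 Mb, 161 kb of H3K4me3 came with 59.4 kb of H3K27me3, so this bin was rich in both. The others were 36 to 37 Mb of chromosome 19 (145 kb of H3K4me3, 47.7 kb of H3K27me3) and 65 to 66 Mb of chromosome 11 (141 kb and 3.56 kb). In the 3 of these 5 bins that were rich in H3K4me3 only, none of the H3K4me3 intervals was overlapped by H3K27me3. These 3 held at most 9.10 kb of H3K27me3, so the lack of contact follows in part from the rule for the classes. In the other 2, 6 of 142 and 4 of 116 were. The metformin libraries gave the same class to each of the 5 bins.

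The densest H3K27me3 bins were all rich in that mark only. On chromosome 12, H3K27me3 covered 615 kb between 2 and 3 Mb, 507 kb between 4 and 5 Mb and 561 kb between 5 and 6 Mb, and H3K4me3 covered 15.1, 24.0 and 5.74 kb. H3K27me3 covered 407 kb between 40 and 41 Mb of chromosome 6, in 278 intervals, and no H3K4me3 interval lay there in untreated cells. This is the core of the run of 307 intervals described above. The fifth bin, 117 to 118 Mb of chromosome 11, held 375 kb of H3K27me3 and 17.5 kb of H3K4me3. In the metformin libraries the H3K27me3 lengths of the 5 bins were 612, 538, 553, 419 and 392 kb, in the order named.

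Of the bins rich in both, the 5 in which the lower-ranking mark still ranked highest were on chromosomes 19, 12 and 6. Between 41 and 42 Mb of chromosome 19, 96.6 kb of H3K4me3 stood beside 284 kb of H3K27me3, and none of its 76 H3K4me3 intervals was overlapped. Between 42 and 43 Mb, with 86.9 and 340 kb, 12 of 84 were overlapped. On chromosome 12, the bin at 53 to 54 Mb held 98.2 kb of H3K4me3 and 214 kb of H3K27me3 with 0 of 87 overlapped, and the bin at 54 to 55 Mb 88.7 and 295 kb with 6 of 75 overlapped. Between 33 and 34 Mb of chromosome 6, at 90.6 and 197 kb, 1 of 64 was overlapped. Bins dense in both marks could thus hold no overlapped H3K4me3 interval.

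Gene clusters fell into different classes. No annotation of hg19 was at hand, so clusters are named only at the scale of 1 Mb bins from textbook knowledge of where they lie, and a bin can also hold other genes. The KRAB zinc finger clusters of 19q13, which encode repressors of transposable elements, were taken at 6 bins of chromosome 19. These bins start at 37, 44, 52, 53, 57 and 58 Mb. They were rich in H3K4me3 in 6 of 6 and in H3K27me3 in 1 of 6, against 25% of used bins for each mark. Most bins of chromosome 19 were alike in this. Of its 57 used bins, 36 were rich in H3K4me3 only, 11 in both and 2 in H3K27me3 only. The counts are thus no trait particular to these clusters. H3K4me3 in them ran from 46.1 to 133 kb per bin, and H3K27me3 from 0 to 43.6 kb. The counts depend on the bins chosen. The bin at 36 to 37 Mb, which holds part of the run of 194 intervals described above, was left out and was rich in both marks (145 and 47.7 kb). The 6p22 histone bins were rich in H3K4me3 in 2 of 2 and in H3K27me3 in none. The clustered protocadherins of 5q31, adhesion molecules of neurons, had 59.9 kb of H3K4me3 and 1.20 kb of H3K27me3.

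The major histocompatibility region of 6p21, which holds antigen presentation and complement genes, was rich in both marks in 4 of 4 bins, with 27.6 to 133 kb of H3K4me3 and 100 to 183 kb of H3K27me3. The keratin cluster of 12q13 was rich in both in 2 of 2 bins, with 33.7 and 98.2 kb of H3K4me3 and 230 and 214 kb of H3K27me3, while the keratin bin of 17q21 was rich in neither (13.4 and 18.8 kb). The epidermal differentiation complex of 1q21, which holds skin barrier genes, was rich in H3K27me3 in 2 of 2 bins, at 83.6 and 133 kb, and in H3K4me3 in 1 of them. Keratin and skin barrier genes are typical of stratified epithelia.

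The HOX clusters, transcription factors that set position along the body axis and classic Polycomb targets, were not alike. The HOXC bin was rich in both marks (88.7 kb of H3K4me3, 295 kb of H3K27me3). The HOXA bin (34.5 and 14.0 kb) and the HOXB bin (99.2 and 36.5 kb) were rich in H3K4me3 only. The HOXD cluster crosses a bin border, and its bins held 29.001 and 9.44 kb of H3K4me3 and 3.13 and 28.1 kb of H3K27me3. In the metformin libraries H3K27me3 covered 8.07 kb of the HOXA, 61.0 kb of the HOXB and 326 kb of the HOXC bin, and 6.68 and 34.5 kb of the HOXD bins. The HOXB bin was there rich in both marks, and the other HOX bins kept their class. Olfactory receptor clusters, which are silent outside the nose, were rich in neither mark. The bins of 11p15 held 5.75 and 3.05 kb of H3K4me3 and 31.6 and 4.1 kb of H3K27me3, where the median used bin held 9.04 kb of H3K27me3. Of the pair of bins at 11q12, one had no H3K4me3 and 9.84 kb of H3K27me3 and the other no interval of either mark.

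Chromosomes differed in the balance of the marks. H3K4me3 covered 0.709% of the mapped stretch on chromosome 13, the lowest share, and 5.84% on chromosome 19, the highest (median 1.64%). For H3K27me3 the lowest share was 0.506% on X and the highest 8.16% on chromosome 20 (median 2.98%). H3K4me3 covered more length than H3K27me3 on 3 of the 23 chromosomes, X (1.43 times as much), 19 (1.34 times) and 13 (1.14 times), and the least in proportion on chromosome 20 (0.268 times). Over the 23 chromosomes the covered shares went together (Spearman rho 0.79), a description of chromosomes that also differ in gene density.

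Chromosome 20 had the shortest median distance from H3K4me3 to H3K27me3, 42.2 kb, the largest share of H3K4me3 intervals under H3K27me3, 5.22% (72 of 1379), and the largest share of bins rich in both, 34.4% (21 of 61). At the other end, the median distance on chromosome 4 was 177.1 kb. On chromosome 13, 4 of 787 H3K4me3 intervals (0.508%) were overlapped, on X 7 of 1304 (0.537%), and neither had a bin rich in both. These shares go with how much H3K27me3 a chromosome has. It covered 8.16% of the mapped stretch on chromosome 20, 0.623% on 13 and 0.506% on X. The overlapped share was thus below that coverage on chromosomes 20 and 13 and about equal to it on X. Chromosome 19 was rich in H3K4me3 only in 36 of 57 bins (63.2%), in both in 11 and in H3K27me3 only in 2, and its H3K27me3 intervals lay nearest to H3K4me3, at a median of 42.0 kb. Bins rich in neither mark made up 82.3% of the used bins of chromosome 4, 92.4% of those of X and 72 of 80 on chromosome 13.

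**Figure D5:**
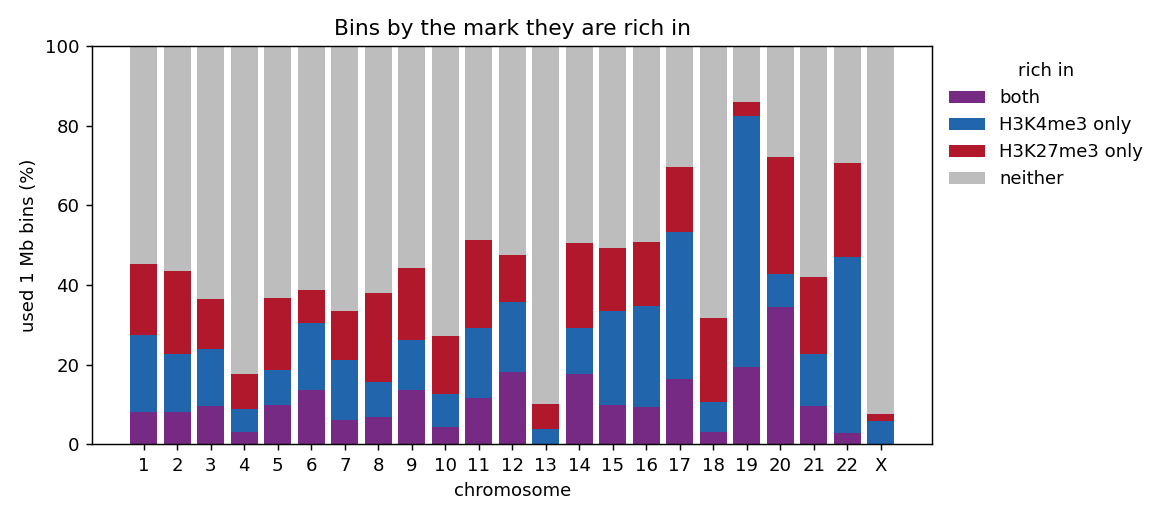
Share of used 1 Mb bins (percent, vertical axis) that are rich in both marks, in H3K4me3 only, in H3K27me3 only or in neither, by chromosome. Bins rich in both make up 34.4% on chromosome 20 and none on chromosomes 13 and X, and 63.2% of bins on chromosome 19 are rich in H3K4me3 only.

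Rich bins lay next to each other. Of 2393 pairs of adjoining used bins, 130 (5.43%) joined 2 bins rich in H3K27me3 only and 135 (5.64%) 2 bins rich in H3K4me3 only, where the shares of the classes alone would give 2.37% each. Adjoining bins that were both rich in both marks numbered 74 (3.09%, against 0.927%). A bin rich in H3K4me3 only next to one rich in H3K27me3 only occurred 128 times (5.35%, against 4.74%). Each pairing of rich classes was more common than the shares of the classes would give, and this pairing exceeded that level least. A bin rich in H3K27me3 only adjoined one rich in both in 5.64% of pairs, against 2.96%, and H3K4me3 only adjoined both in 4.18%, against 2.96%. The longest unbroken block rich in H3K4me3 was the first 20 Mb of chromosome 19, in which each bin was rich in that mark only, with 1390 kb of H3K4me3 and 265 kb of H3K27me3. For H3K27me3 it was 16 bins from 122 to 138 Mb of chromosome 3, with 1884 kb of H3K27me3 and 368 kb of H3K4me3. The longest block rich in both was 28 to 34 Mb of chromosome 6, which includes the major histocompatibility region. The longest rich in neither was 138 to 162 Mb of chromosome 4, where H3K4me3 covered 190 kb and H3K27me3 18.7 kb.

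The same measures in the metformin libraries are given side by side, with no replicate check. H3K27me3 overlapped 2.78% of H3K4me3 intervals (1408) in untreated cells and 4.55% (2432) with metformin, and H3K4me3 overlapped 1.36% and 2.22% of H3K27me3 intervals. The median distance from H3K4me3 to H3K27me3 was 81.7 kb in untreated cells and 67.6 kb with metformin, and from H3K27me3 to H3K4me3 65.9 and 57.2 kb. H3K27me3 lay within 10 kb of 15.9% and 19.9% of H3K4me3 intervals. Mixed neighbours were 9.04% and 10.2% of pairs, or 0.199 and 0.223 times the level of composition. Bins rich in both numbered 249 of 2586 and 280 of 2628, and those rich in each mark alone 398 and 377. Covered length was also larger with metformin (55.2 Mb of H3K4me3 and 93.3 Mb of H3K27me3), which alone shortens distances, and the part of this in the differences was not tested. Of the 2555 bins used in both conditions, 2411 (94.4%) were in the same class, among them 235 of the 249 rich in both.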

How the data were processed

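Peak lists were analysed for H3K4me3 and H3K27me3 in untreated H1299 cells, with the metformin lists beside them. Per the submitters' processing notes, Trimmomatic 0.38, Bowtie and MACS2 were used with the build hg19 (GRCh37). Their options and the library used as background are not stated in those notes. Each deposited list belongs to 1 library and gives a −log10 value per peak, read as −log10 q because the smallest values, 1.31 and 1.01, lie just above the −log10 of 0.05 and of 0.1. It was used only to class intervals within a list. Rows of the same interval were joined, keeping the highest value. Coordinates are 1-based.

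From these lists were computed the gap between interval edges to the nearest interval of the other mark, overlaps of at least 1 bp, the share of bases by distance, the order by midpoint, and covered length in 1 Mb bins. Shares carry exact Clopper-Pearson 95% intervals and medians binomial order-statistic 95% intervals. On simulated data, made by giving 2814 control H3K4me3 intervals partners at known gaps, 100% of gaps and overlaps were recovered, and all 50582 H3K4me3 gaps equalled those of bedtools 2.31.1. Python 3.11.15, numpy 2.4.6, pandas 2.3.3, scipy 1.17.1 and matplotlib 3.10.9 were used.

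The lists compared, the bins, the gene clusters and the rules were chosen with earlier results of these data known. Regions were named by rank: the 5 densest bins of each kind, the 5 longest overlaps, and the 3 longest runs and alternating stretches. Shares within bin classes and the bases of used bins were added after seeing the data. Alternatives changed the value limit, merging, widths, overlap, the limit for rich bins and bin size. No genome sequence of hg19 was used here, so no sequence is shown.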

Additional observations from a re-analysis of the deposited data

How the results depend on the processing

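No paired analysis was possible because each mark and condition had a single library, and no replicate could be left out. Values follow the order share of H3K4me3 intervals overlapped (2.78%), share of H3K27me3 intervals overlapped (1.36%), median distance from H3K4me3 (81.7 kb), median distance from H3K27me3 (65.9 kb) and share of mixed neighbours (9.04%). With H3K4me3 values of 5 or more the first 4 were 2.32%, 0.741%, 79.1 kb and 83.9 kb. With intervals within 1 kb merged they were 4.33%, 1.59%, 81.3 kb and 66.9 kb, and 12.7% of neighbours were mixed. With intervals of 500 bp or more of both marks they were 1.94%, 0.905%, 107 kb and 84.0 kb, and 10.6% were mixed. With at least 200 bp of overlap the first 2 were 1.92% and 0.991%. Settings chosen after seeing the data were H3K27me3 merged within 5 kb (4.12%, 3.69% and 14.6% mixed) and both marks merged within 5 kb (24.0% mixed). Overlap and alternation thus depend on how lists split a site, and the median distance from H3K4me3 moved most with the width limit. In each of these settings the mixed share was below that of composition, which ran from 36.2% to 47.0%. With the limit for rich bins at the top 10%, 38 bins (1.47%, where independence would give 1%) were rich in both and 221 in each mark alone. In bins of 0.5 Mb the numbers were 348 and 838. Depth is unknown, so an interval absent from a list may lie below its calling limit.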
